A study of Homo sapiens with 3 samples.

Results

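The genes described here encode splicing factors and proteins of the small nuclear ribonucleoproteins (snRNPs), and they were examined for peaks of VCP and of its Flag tag on chromatin. They were all protein-coding RefSeq genes whose symbol starts with SRSF, HNRNP, SNRP, SF3A, SF3B, U2AF or PRPF, together with DDX5, DDX17, TRA2A and TRA2B, leaving out 6 HNRNPCL and HNRNPA1L copies. This gave 72 genes of 19866 protein-coding genes: 14 genes of SR proteins (SRSF and TRA2), 20 hnRNP genes, 12 SNRP genes, 9 SF3A and SF3B genes, 3 U2AF genes, 12 PRPF genes and 2 genes of DEAD-box helicases. All samples were HCT116, a human colorectal cancer cell line, made to express VCP with a Flag tag. The ATPase VCP pulls ubiquitin-tagged proteins out of complexes. For 1 library a VCP antibody was used on fixed, nuclease-cut chromatin, for 1 library a Flag antibody, and 1 input library had no antibody and was not used here. The sources used here do not give the promoter of the tagged gene or whether the cells were 1 clone. There were no replicates, so no value has an error between cultures.

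Splicing removes introns in the spliceosome, which is built from snRNPs. Each spliceosomal snRNP holds a small RNA, a ring of Sm proteins and its own set of further proteins. SR proteins bind exons and mostly help a splice site to be used, hnRNP proteins coat the transcript and often oppose them, and U2AF and the SF3A and SF3B complexes choose the 3′ splice site and the branch point. Many of these genes also splice their own transcripts to hold their protein level steady.

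Peaks were called per library, 1816 for VCP and 5719 for Flag. Fold enrichment at a summit and -log10 q are the authors' own values for each peak. Read counts at summits, and the background under them, were worked back from fold enrichment and p. A whole number of reads matched -log10 p to within 0.001 for every one of the 1816 and 5719 peaks. The median peak rested on 10 VCP reads or 11 Flag reads, and 6.50% of VCP peaks and 33.8% of Flag peaks had a q of at most 0.05. Intervals below are exact 95% intervals of read counts (Poisson) or of shares (binomial) and cover counting error only. Of 12 intestinal epithelium markers 0 had a VCP peak at an end and 1 a Flag peak (KRT19, fold enrichment 2.87). Of 14 markers of other cell types, 0 had a peak in either list. A peak does not measure expression, so the cell type was not checked by these counts.

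A gene was counted when a summit lay within 1 kb of either of its outer ends. The VCP list marked 3 of the 72 splicing genes (4.17%, interval 0.868 to 11.7), against 2.34% of all protein-coding genes. The Flag list marked 21 of the 72 (29.2%, 19.0 to 41.1), against 11.7% of all protein-coding genes. All protein-coding genes include those not expressed in these cells. The members' share was 1.78 times the background for VCP and 2.48 times for Flag. Both lists marked HNRNPA0, HNRNPA2B1 and SRSF9, which were all 3 genes with a VCP peak and 14.3% of the 21 with a Flag peak. Over all protein-coding genes, 196 were marked by both lists (0.987%), or 42.2% of those with a VCP peak and 8.40% of those with a Flag peak. Neither list marked 51 of the 72 genes.

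**Figure D1:**
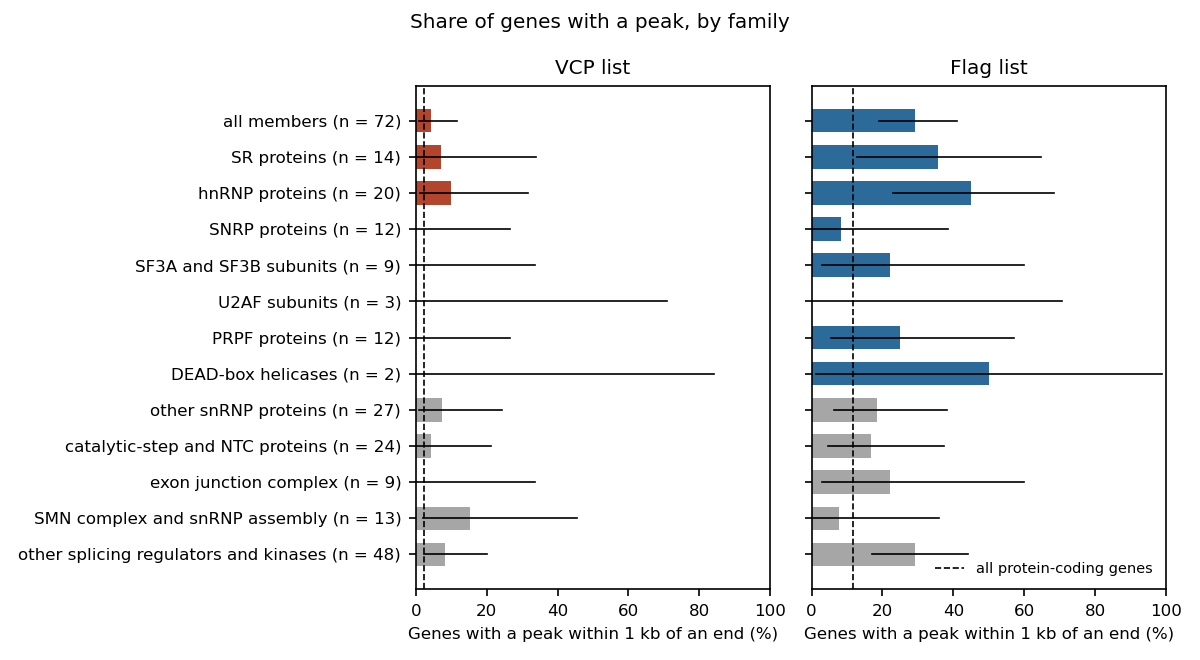
Share of genes with a peak within 1 kb of an end, in percent, for the VCP list (left) and the Flag list (right). Coloured bars are the splicing genes and their families, grey bars are further lists of splicing genes, black lines are exact binomial 95% intervals and the dashed line is the share of all protein-coding genes (2.34% and 11.7%). The hnRNP genes reached 10% for VCP and 45% for Flag and the SNRP genes had 0 and 1 of 12, with overlapping intervals.

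The start regions of 5 genes are shown because a summit lies inside the window from 250 bases before to 50 bases after a RefSeq start. For DDX5, SNRPE, SF3B6 and SRSF4 it is a Flag summit with a q of at most 0.01, and for HNRNPA0 it is the VCP summit. Flag summits with a higher q also lay in windows of HNRNPA3, TRA2B, HNRNPDL and HNRNPH3. Those windows hold no CCGGAAG match and are not shown. SRSF3, TRA2B and HNRNPA0 also had a Flag peak with a q of at most 0.01, and their windows held no CCGGAAG match. A further DDX5 window, covered by the same peak, held none either and is not shown. Sequences are RefSeq's, on GRCh38.p14, read 5′ to 3′ on the strand of the gene. The windows are chr17:64506589-64506888 on the minus strand for DDX5, chr1:203861597-203861896 on the plus strand for SNRPE, chr2:24076277-24076576 on the minus strand for SF3B6, chr1:29181851-29182150 on the minus strand for SRSF4 and chr5:137754314-137754613 on the minus strand for HNRNPA0. Capitals mark matches, on either strand, to CCGGAAG (a core bound by ETS factors), GGGCGG (the GC box) or CCAAT.
DDX5: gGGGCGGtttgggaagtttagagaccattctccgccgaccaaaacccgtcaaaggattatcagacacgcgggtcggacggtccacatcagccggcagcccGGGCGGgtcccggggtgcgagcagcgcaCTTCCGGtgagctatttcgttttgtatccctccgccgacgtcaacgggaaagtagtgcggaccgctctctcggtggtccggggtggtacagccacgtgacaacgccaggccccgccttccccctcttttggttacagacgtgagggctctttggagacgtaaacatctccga
SNRPE: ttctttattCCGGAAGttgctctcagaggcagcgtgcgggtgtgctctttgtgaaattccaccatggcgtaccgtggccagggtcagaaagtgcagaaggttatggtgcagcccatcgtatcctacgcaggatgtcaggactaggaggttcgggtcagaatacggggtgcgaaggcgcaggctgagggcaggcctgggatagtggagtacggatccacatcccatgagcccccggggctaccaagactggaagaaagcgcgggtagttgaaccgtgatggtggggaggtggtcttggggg
SF3B6: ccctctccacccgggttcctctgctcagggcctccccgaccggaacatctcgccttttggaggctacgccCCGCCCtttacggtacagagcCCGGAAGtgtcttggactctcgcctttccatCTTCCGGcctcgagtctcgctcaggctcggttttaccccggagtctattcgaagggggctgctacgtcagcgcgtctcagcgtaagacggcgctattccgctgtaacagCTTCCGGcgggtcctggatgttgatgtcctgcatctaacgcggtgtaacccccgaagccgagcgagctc
SRSF4: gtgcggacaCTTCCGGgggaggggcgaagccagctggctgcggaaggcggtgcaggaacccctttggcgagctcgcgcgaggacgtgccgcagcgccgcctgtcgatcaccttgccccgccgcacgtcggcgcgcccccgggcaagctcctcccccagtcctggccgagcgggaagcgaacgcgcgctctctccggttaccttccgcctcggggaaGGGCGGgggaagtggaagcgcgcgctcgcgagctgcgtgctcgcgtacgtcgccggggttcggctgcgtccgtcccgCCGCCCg
HNRNPA0: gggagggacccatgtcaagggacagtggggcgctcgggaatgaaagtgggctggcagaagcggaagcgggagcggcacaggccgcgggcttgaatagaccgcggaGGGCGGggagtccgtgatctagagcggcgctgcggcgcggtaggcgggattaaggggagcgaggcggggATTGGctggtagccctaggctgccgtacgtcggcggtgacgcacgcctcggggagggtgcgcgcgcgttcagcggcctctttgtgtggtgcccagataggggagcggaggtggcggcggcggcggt

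In DDX5 the Flag summit lay 122 bases before this start, at the first base of the CCGGAAG match. The DDX5 start shown is an inner one, and the summit lay 106 bp inside the outer end of the gene. The SNRPE summit lay 103 bases before the start shown, an inner start of that gene, and 145 bp inside the outer end. The gene begins at 203861599, so nearly all of its window lies inside the gene. The only match in this window was a CCGGAAG 241 bases before the start shown. The SF3B6 window held 3 matches to CCGGAAG, which begin 159, 128 and 19 bases before the start, and its summit lay 165 bases before the start. In SRSF4 the summit lay 141 bases before the start. HNRNPA0 had its VCP summit 249 bases before the start, at base 2 of the window, and no CCGGAAG match.

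SR proteins had a VCP peak at 1 of 14 genes (7.14%, interval 0.181 to 33.9), against 2.34% of all protein-coding genes. A Flag peak was at 5 of 14 (35.7%, interval 12.8 to 64.9), against 11.7%. SRSF9, which encodes an SR protein, was marked in both lists. In the VCP list SRSF9 had 2 peaks, each with 9 reads (4.12 to 17.1) over a background of 1.74 and a fold enrichment of 3.65, with summits 147 bp inside the gene and 598 bp outside it. Its Flag peak had 9 reads (4.12 to 17.1) over 1.85 and a fold enrichment of 3.51, with its summit 174 bp inside. The inner VCP peak and the Flag peak overlapped, with summits 27 bp apart. These were weak peaks, with a q of 0.408 for VCP and 0.154 for Flag. The gene DYNLL1, of a dynein light chain, has an end 241 bp from the inner VCP summit and 268 bp from the Flag summit. The outer VCP summit was nearer to that end of DYNLL1, at 504 bp, than to SRSF9.

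The 4 other SR genes with a Flag peak had no listed VCP peak. TRA2B, whose protein binds exonic enhancers, had 2 Flag peaks near its start, one 637 bp inside (fold enrichment 4.55, 14 reads, interval 7.65 to 23.5, -log10 q 2.98) and one 227 bp outside (3.16, 8 reads, 3.45 to 15.8, -log10 q 0.458). SRSF3, which encodes the smallest SR protein, had 21 reads (13.0 to 32.1) over a background of 4.99 in the Flag list, with a fold enrichment of 3.67, 171 bp inside its start. That background was the highest among the Flag peaks of the splicing genes, whose median was 2.27. SRSF4 had a fold enrichment of 3.83 with 15 reads (8.40 to 24.7). SRSF6 had a fold enrichment of 3.35 with 13 reads (6.92 to 22.2), 347 bp inside its start, and a q of 0.0555. The other 9 SR genes had no peak at an end in either list: SRSF1, SRSF2, SRSF5, SRSF7, SRSF8, SRSF10, SRSF11, SRSF12 and TRA2A.

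The hnRNP genes, the largest family here, held the most marked members. They had a VCP peak at 2 of 20 (10%, interval 1.23 to 31.7), against 2.34% of all protein-coding genes. A Flag peak was at 9 of 20 (45%, 23.1 to 68.5), against 11.7%, and this interval overlapped that of every other family here. HNRNPA2B1, which encodes an A/B-type hnRNP that binds nuclear transcripts, had the strongest VCP peak among the splicing genes. That VCP peak lay on chromosome 7 from 26200106 to 26200342, ranked 26 in its list by -log10 q, and had 15 reads (8.40 to 24.7) over a background of 2.40, a fold enrichment of 4.70 and -log10 q of 2.38. The Flag peak of HNRNPA2B1 spanned 26201251 to 26201545, with 12 reads (6.20 to 21.0) over 2.27, a fold enrichment of 3.98 and -log10 q of 1.83. These peaks did not overlap. The VCP summit lay 578 bp inside the gene and the Flag summit 639 bp outside it, 1217 bp apart, and the Flag summit was 58 bp from the end of the neighbour CBX3, which encodes a heterochromatin protein.

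HNRNPA0, another A/B-type hnRNP gene, lay under overlapping peaks on chromosome 5. The VCP peak ran from 137754303 to 137754687, with 12 reads (6.20 to 21.0) over 2.56, a fold enrichment of 3.65 and a q of 0.201. The Flag list had a peak from 137754489 to 137754688, with 17 reads (9.90 to 27.2) over 2.79, a fold enrichment of 4.75 and -log10 q of 3.95, and its summit was 55 bp from the VCP summit. A further Flag peak had its summit 125 bp inside the gene (fold enrichment 3.51, 9 reads). With a q of at most 0.05, HNRNPA2B1 was the gene that remained in both lists, although its peaks lay apart.

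The other 7 hnRNP genes had a Flag peak and no listed VCP peak. HNRNPDL, whose protein is related to the AU-rich element binding protein of HNRNPD, had 13 reads (6.92 to 22.2) and a fold enrichment of 3.76, 91 bp inside its start. HNRNPD itself had 12 reads over a background of 3.63, with a fold enrichment of 2.81, 399 bp outside. HNRNPA1, the most studied A/B-type member, had a fold enrichment of 3.86 with 10 reads, 301 bp outside the gene and 303 bp from the end of CBX5, a second heterochromatin protein gene. HNRNPA3 had a fold enrichment of 3.55 (11 reads) and HNRNPH3, a relative of the G-tract binding hnRNP H, had 3.67 (11 reads). HNRNPH2, on the X chromosome, had 3.86 (10 reads), 128 bp inside its start and 425 bp from an end of GLA, a lysosomal enzyme gene. HNRNPK, whose protein binds C-rich RNA, had 2.81 (12 reads) over a background of 3.63. Of the 11 hnRNP genes without a peak at an end, HNRNPU and HNRNPUL1 had a Flag peak deeper inside the gene, HNRNPH1 had one farther outside, and HNRNPAB, HNRNPC, HNRNPF, HNRNPL, HNRNPLL, HNRNPM, HNRNPR and HNRNPUL2 did not.

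**Figure D2:**
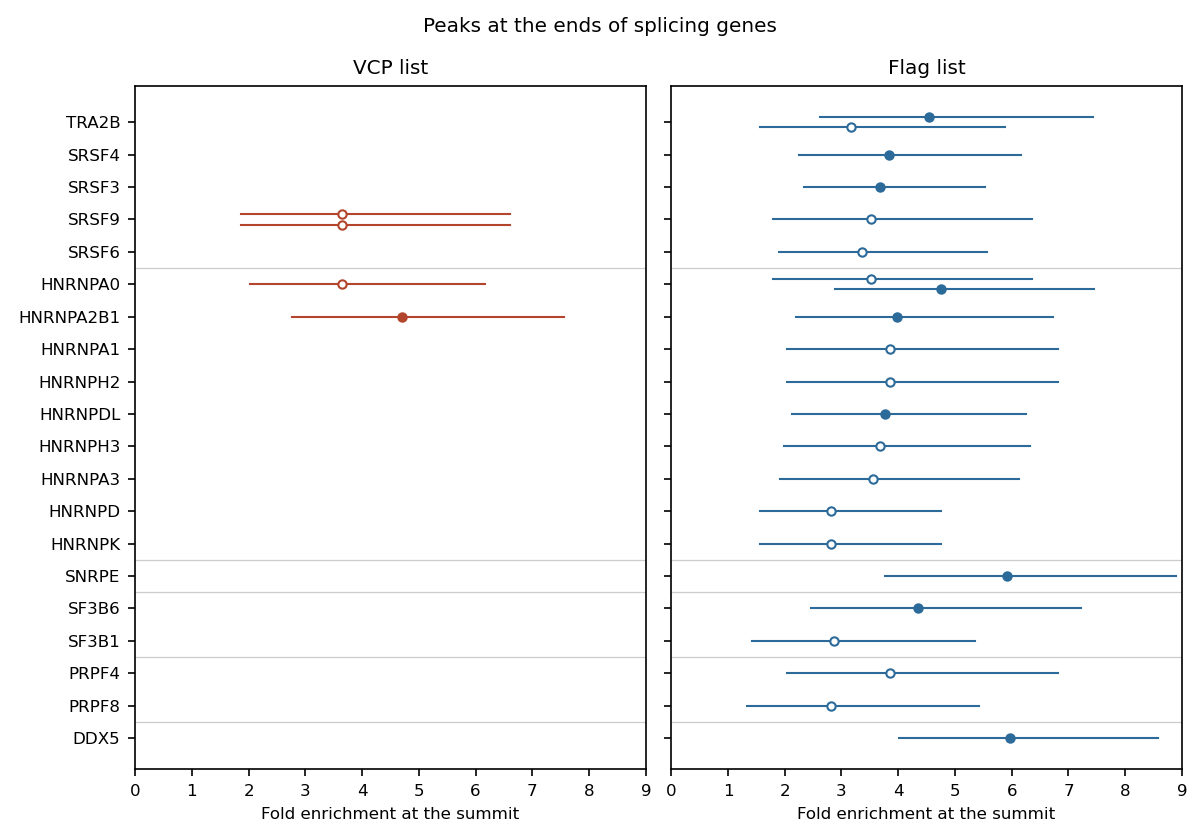
Fold enrichment at the summit of peaks within 1 kb of an end of a splicing gene, in the VCP list (left) and the Flag list (right). Each point is 1 peak, filled where q is at most 0.05, with the exact Poisson 95% interval of its reads carried to the fold scale at a fixed background; grey lines separate families. The 4 VCP peaks lie at SRSF9, HNRNPA0 and HNRNPA2B1, and the 22 Flag peaks drawn lie at 20 genes, with DDX5 (5.97) and SNRPE (5.91) farthest right.

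SNRP genes encode Sm proteins and proteins particular to single snRNPs. They had a VCP peak at 0 of 12, against 2.34% of all protein-coding genes. A Flag peak was at 1 of 12 (8.33%, interval 0.211 to 38.5), against 11.7%. That gene was SNRPE, which encodes a protein of the Sm ring. Its Flag peak spanned 203861415 to 203861915 on chromosome 1, with 21 reads (13.0 to 32.1) over a background of 2.72, a fold enrichment of 5.91 and -log10 q of 7.06, the rank of 74 among 5719 Flag peaks. SNRPA, SNRPA1, SNRPB, SNRPB2, SNRPC, SNRPD1, SNRPD2, SNRPD3, SNRPF, SNRPG and SNRPN had no peak at an end in either list. SNRPN had 1 Flag peak deep in its body, 61646 bp from its nearer end (fold enrichment 2.81, 12 reads).

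SF3A and SF3B genes had a VCP peak at 0 of 9, against 2.34% of all protein-coding genes. A Flag peak was at 2 of 9 (22.2%, interval 2.81 to 60.0), against 11.7%. SF3B6, whose protein sits at the branch point adenosine, had 13 reads (6.92 to 22.2) over 2.22, a fold enrichment of 4.35 and -log10 q of 2.50. SF3B1, the largest SF3B subunit and a gene mutated in several cancers, had 8 reads (3.45 to 15.8) over 2.13, a fold enrichment of 2.87 and a q of 0.502. The 3 U2AF genes (U2AF1, U2AF2 and U2AF1L4) had no peak at an end in either list, with an interval of 0 to 70.8 for Flag.

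PRPF genes had a VCP peak at 0 of 12, against 2.34% of all protein-coding genes. A Flag peak was at 3 of 12 (25%, interval 5.49 to 57.2), against 11.7%, with PRPF4 and PRPF8 among them. PRPF4, of the U4/U6 snRNP, had 10 reads (4.80 to 18.4) and a fold enrichment of 3.86, 280 bp outside its start and 194 bp from the end of CDC26. PRPF8, which forms the core of the spliceosome, had 7 reads (2.81 to 14.4), a fold enrichment of 2.81 and a q of 0.63. Its summit lay 880 bp beyond the end of PRPF8 that is not its start, and 117 bp from the end of RILP. Both summits were nearer to the neighbour than to the PRPF gene.

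Of the DEAD-box helicases, DDX5 had a Flag peak and no listed VCP peak, and DDX17 had neither. DDX5 encodes an RNA helicase that also acts with transcription factors. The DDX5 peak on chromosome 17 (64506240 to 64506869) was the strongest of all Flag peaks at the splicing genes, with 27 reads (17.8 to 39.3) over a background of 3.69, a fold enrichment of 5.97 and -log10 q of 9.31, the rank of 34 in the list. It was also the widest, at 630 bp, and held most or all of the windows around both RefSeq starts of DDX5 that it touched (281 and 300 of 300 bases). Its summit lay 2 bp from the outer end of CEP95, a centrosome protein gene, so the peak stands at a pair of gene ends.

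The peaks at splicing genes were of ordinary strength for gene ends. The 4 VCP peaks had fold enrichments of 3.65 to 4.70 with a median of 3.65, against a median of 3.61 over all 395 VCP peaks at ends of protein-coding genes. The 23 Flag peaks had fold enrichments of 2.81 to 5.97 with a median of 3.73, against a median of 3.67 over all 2027 such Flag peaks. Reads ranged from 9 to 15 for VCP and from 7 to 27 for Flag. The median background at the Flag peaks was 2.27 reads for the splicing genes and 2.27 for all gene ends. Of the 4 VCP peaks 1 had a q of at most 0.05, against 11.6% of all VCP gene-end peaks, and of the 23 Flag peaks 10 did (43.5%), against 45.1%.

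**Figure D3:**
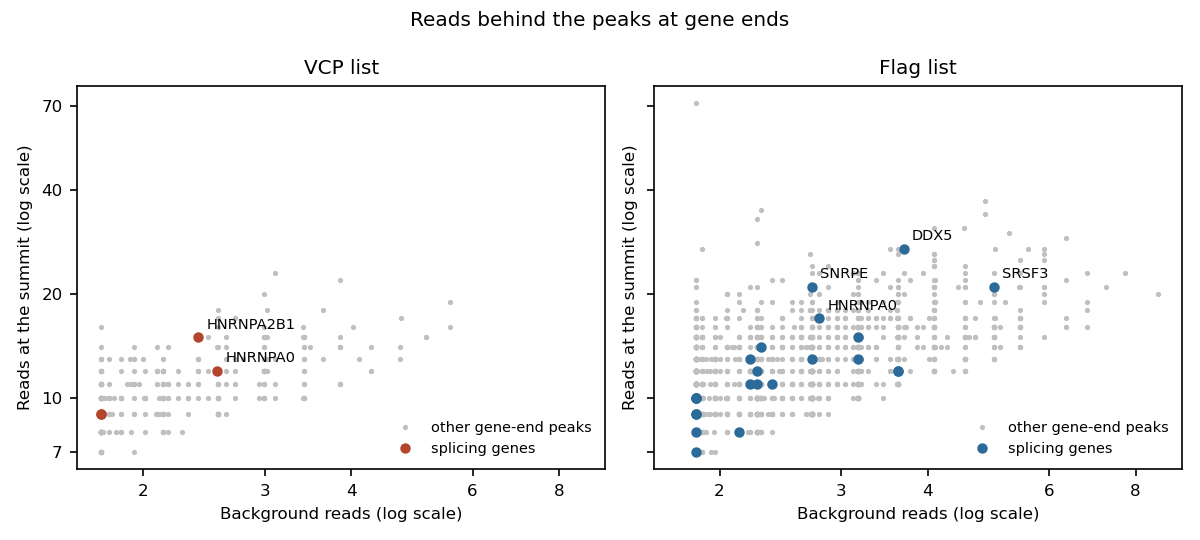
Reads at the summit against the local background, in reads, on log axes, for peaks at ends of protein-coding genes in the VCP list (left) and the Flag list (right). Coloured points are peaks at splicing genes, grey points all others; the coloured points lie within the grey cloud, with DDX5 at 27 reads and SRSF3 at a background of 4.99.

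Stricter limits left fewer genes. At a q of at most 0.05 the VCP list marked 1 of the 72 genes (1.39%), against 0.272% of all protein-coding genes, and the Flag list 10 (13.9%), against 5.53%. Among the 10 were DDX5, SNRPE, HNRNPA0, SRSF3, TRA2B, SF3B6, SRSF4, HNRNPA2B1 and HNRNPDL. HNRNPDL lay inside that limit with a q of 0.0186, and HNRNPA1, HNRNPH2, HNRNPH3 and PRPF4 lay just outside with a q of 0.0509 each. At a q of at most 0.01 the counts were 1 (against 0.126% of all genes) in the VCP list and 7 (9.72%, against 3.93%) in the Flag list. When the Flag list was limited to its 1816 peaks with the highest -log10 q, the length of the VCP list, it marked 9 of the 72 (12.5%), against 5.33% of all protein-coding genes. HNRNPA2B1 and HNRNPA0 were then the genes in both lists.

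Of the 21 genes with a Flag peak 18 had no VCP peak at an end (85.7%), against 91.6% of all protein-coding genes with a Flag peak. For these 18 genes the nearest VCP summit lay between 29455 bp (PRPF4) and 5109699 bp (HNRNPA3) from a gene end. All 3 genes with a VCP peak also had a Flag peak. Among the genes without a VCP peak, HNRNPUL2 had the nearest VCP summit, 6456 bp from an end.

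Most summits sat at gene starts. The strand was known from the promoter table for 64 of the 72 genes. All 4 VCP summits lay at the start, against 89.5% of all VCP gene and peak pairs with a known strand. Of 21 Flag pairs 20 lay at the start, against 93.5% of all, and the exception was PRPF8. The median distance to the gene end was 414 bp for VCP and 171 bp for Flag. Over all genes the medians were 185 bp and 193 bp. In the Flag list 12 of 23 summits lay inside the gene (52.2%), against 42.0% of all Flag gene and peak pairs.

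**Figure D4:**
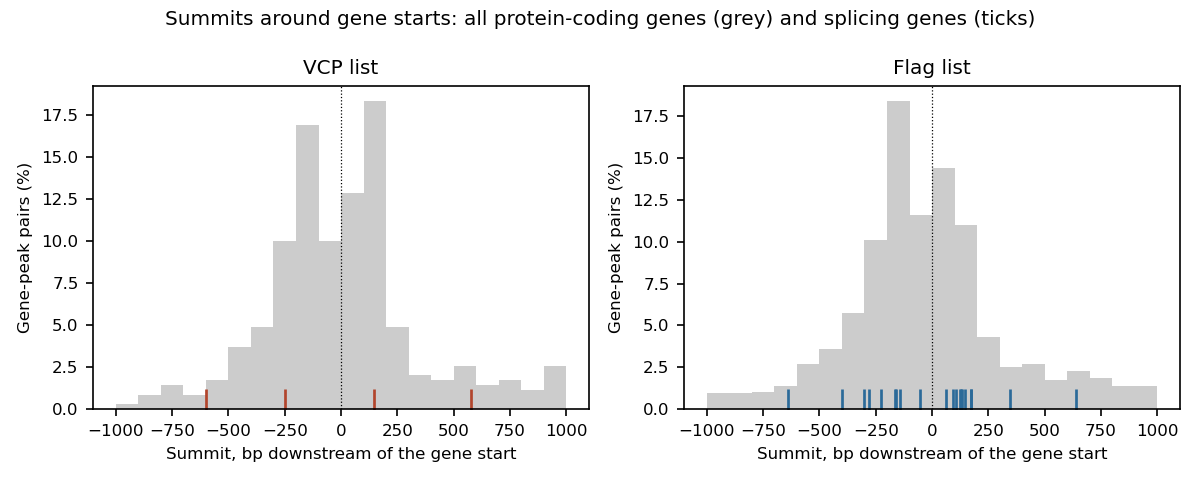
Position of summits around the start of the gene, in bp downstream, for the VCP list (left) and the Flag list (right). Grey bars give the percent of all gene and peak pairs per 100 bp at starts of protein-coding genes, and ticks are the splicing genes with a known strand (4 VCP and 20 Flag pairs), which fall on both sides of the start.

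Many of these peaks were shared with a neighbouring gene. Of the 23 Flag peaks at splicing genes 11 also lay within 1 kb of the end of another protein-coding gene (47.8%), against 33.9% of all Flag gene and peak pairs. In the VCP list it was 2 of 4, both at SRSF9, against 30.9%. The neighbours of the Flag peaks included CEP95 (DDX5), CBX3 (HNRNPA2B1), CBX5 (HNRNPA1), RMI1 (HNRNPK), ENOPH1 (HNRNPDL), GLA (HNRNPH2), DYNLL1 (SRSF9), FAM228B and TP53I3 (SF3B6), CDC26 (PRPF4) and RILP (PRPF8). When each peak was given only to the gene with the nearest end, 16 of the 72 genes had a Flag peak (22.2%, against 9.87% of all protein-coding genes). DDX5, HNRNPA2B1, PRPF4 and PRPF8 were among those no longer counted. Which gene of a pair a peak belongs to cannot be told from these lists.

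Just beyond the 1 kb limit, Flag summits lay 1162 bp outside HNRNPA1, 1346 and 2496 bp inside HNRNPU, 1560 bp inside HNRNPDL, 1764 bp outside TRA2B, 1884 bp inside HNRNPUL1 and 2861 bp outside HNRNPH1. HNRNPU encodes a scaffold protein of the nucleus. The HNRNPUL1 peak was the strongest of these, with 13 reads (6.92 to 22.2) over 1.85, a fold enrichment of 4.92 and -log10 q of 3.18. Its summit lay 69 bp downstream of an inner RefSeq start of HNRNPUL1, so counting inner starts would add this gene. The other 6 summits had fold enrichments between 3.03 and 3.51 and were not within 1 kb of any start of the gene in the promoter table, which has no entry for HNRNPA1. The VCP list had no further summit within 3 kb of an end or inside a splicing gene.

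Start regions of the splicing genes were compared as sequence, with 1 window of 300 bases per gene at its outermost start in the table. Windows were given for 19 of the 21 genes with a Flag peak and 45 of the 51 without. The median GC content was 62.7% in those with a Flag peak and 61.7% in those without. It was 65% over the 1960 protein-coding genes with a Flag peak and a window, and 62.7% over the 15843 protein-coding genes with a window. Values over all genes below cover only these genes with a window. The observed over expected ratio of CpG had a median of 1.02 (quartiles 0.931 and 1.12) in those with a Flag peak, 0.924 (0.777 and 1.07) in those without, 0.855 over all genes with a Flag peak and 0.761 over all genes. GGGCGG was found in 13 of 19 (68.4%) and 26 of 45 (57.8%), against 70.4% of all genes with a Flag peak and 58.3% of all genes. CCAAT was found in 8 of 19 (42.1%) and 19 of 45 (42.2%), against 36.4% of all genes.

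CCGGAAG was found in 5 of 19 windows with a Flag peak (26.3%) and in 17 of 45 without (37.8%), against 23.1% of all genes with a Flag peak and 14.2% of all genes. TATAAA was found in 2 of 19 and 3 of 45, against 9.75% of all genes. TGACGTCA (the CRE palindrome) and the NRF1 palindrome were in 0 of the 64 windows, against 2.56% and 1.77% of all genes, and the YY1 motif in 3 of 64, against 2.23%. Both strands were searched and matches of different motifs could overlap. A match describes letters in the window and is not a binding site.

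Other splicing genes, in 5 lists that do not overlap with these 72, had a VCP peak at 9 of 121 (7.44%, interval 3.46 to 13.7). A Flag peak was at 26 of 121 (21.5%, 14.5 to 29.9), and 5 genes had both, against 0.987% of all protein-coding genes. The shares over all protein-coding genes were 2.34% for VCP and 11.7% for Flag, and over the 72 genes 4.17% and 29.2%. Splicing regulators and kinases had a VCP peak at 4 of 48 and a Flag peak at 14 of 48 (29.2%). TARDBP, which encodes TDP-43, had 5.03 for VCP and 2.69 for Flag (13 and 9 reads). PUF60, a U2AF-related factor gene, had 3.64 and 5.24, and EWSR1 had 4.11 and 4.14. SYNCRIP (4.55) and SRRM2 (4.05) had a Flag peak only.

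Proteins of the snRNPs outside the SNRP prefix had a VCP peak at 2 of 27 genes, LSM2 (fold enrichment 4.20) and PHF5A (3.34), and a Flag peak at 5 of 27 (18.5%), PPIH (4.92), DDX46 (4.04), EFTUD2 (3.85), USP39 (2.75) and SNRNP35 (2.56), with 0 in both. Genes of the catalytic steps and of the Prp19-associated NTC complex had a VCP peak at 1 of 24, DDX41 (3.84), and a Flag peak at 4 of 24 (16.7%), CDC40 (4.31), AQR (4.57), DDX41 (4.04) and CWC15 (3.86). The exon junction complex had a VCP peak at 0 of 9 and a Flag peak at 2 of 9, ACIN1 (5.83) and its anchor EIF4A3 (4.09). Another list held genes of the SMN complex, which loads Sm rings onto small nuclear RNAs, and of snRNP assembly. Of these genes the VCP list had 2 of 13, WDR77 (4.38) and GEMIN7 (3.36), and the Flag list 1 of 13, DDX20 (3.50). Over all protein-coding genes the shares were 2.34% for VCP and 11.7% for Flag. Between-list differences of these counts were not tested, since each antibody had 1 library.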

How the data were processed

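Chromatin immunoprecipitation sequencing of HCT116 cells gave 1 peak list for VCP and 1 for Flag. Per the labels' protocols, fixed chromatin was cut with micrococcal nuclease. Per the submitters' processing notes, reads were handled with MACS2 2.1.0, Bowtie 1.1.2, Trimmomatic 0.33 and bcl2fastq 2.17, on hg38. The sources used here do not give the settings, the use of the input or the treatment of reads from near-identical copies. The fold enrichment is the authors' ratio at each summit, and -log10 p and -log10 q are the authors' as well. The deposited score was not used. The lowest -log10 p was 3.00 in both lists.

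Positions are 1-based. Genes came from RefSeq's table for GRCh38.p14 (58961 of 59792 rows on chromosomes, 19866 protein-coding), and strands, starts and sequences from its promoter table (64 of the 72 members matched; those that did not include PRPF3, PRPF39, TRA2A, HNRNPA1, SF3B3, SRSF2 and SNRPD1). A gene held a peak if the summit was no farther than 1 kb from either outer end. Reads were recovered as the whole number whose Poisson tail, with a pseudocount of 1 read, matched the authors' -log10 p. No test was run, as there was 1 library per antibody. Members and lists were chosen with earlier results of these data known. Named genes are all members with a peak at an end, those with a peak within 3 kb or in the body, and up to 5 per further list by -log10 q, except 2 genes whose values are not reported here. The code was tested on simulated peaks. Python 3.11.15, pandas 2.3.3 and scipy 1.17.1 were used. Alternatives were other q limits, windows, peak assignments and list lengths.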

Additional observations from a re-analysis of the deposited data

How the results depend on the processing

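No paired analysis was possible because each antibody had 1 library, and no replicate could be left out. The counts of 3 genes with a VCP peak, 21 with a Flag peak and 3 with both stayed within 1.5 times under the 500 bp and 3 kb windows, assignment of each peak to the nearest gene end, counting any base of a peak, gene starts only and, added after the data were seen, any RefSeq start. Over these, the Flag count was lowest, at 16, with the nearest gene end (22.2%, against 9.87% of all protein-coding genes). It was highest, at 24, with the 3 kb window (33.3%, against 14.5%). Requiring the peaks to overlap left 2 genes in both lists. At a q of at most 0.05 the counts were 1, 10 and 1, and the median fold enrichment of the Flag peaks was 4.17, against 3.73 with all peaks. At a q of at most 0.01 they were 1, 7 and 0, with a median of 4.55. With the Flag list at the length of the VCP list, 9 genes had a Flag peak and the median was 4.35. These settings keep only stronger peaks by construction. Most peaks rest on about 10 reads, so a gene without a peak is not shown to lack VCP.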

Other observations

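The RNA partners of the snRNP proteins were looked at after the other results were seen. Of 149 genes that RefSeq classes as small nuclear RNA on the chromosomes, 3 had a VCP summit within 1 kb of an end (2.01%, against 2.34% of protein-coding genes) and 13 a Flag summit (8.72%, against 11.7%), on 3 and 14 peaks. Neither share was above that of protein-coding genes. A q of at most 0.05 was reached at 1 of the 149 genes in the VCP list, RNVU1-30 (fold enrichment 4.74, q of 0.0202), against 0.272% of protein-coding genes. In the Flag list 8 of the 149 reached it, against 5.53% of protein-coding genes. RNU4-2, a U4 RNA gene, was marked in both lists, with a fold enrichment of 3.50 and a q of 0.201 in the VCP list, 743 bp from its end, and 4.90 in the Flag list, 124 bp from its end, and these summits lay 1011 bp apart. Its neighbour RNU4-1 had a Flag peak with a fold enrichment of 4.32 and 19 reads. RNU11, of the minor spliceosome, had 2 Flag peaks (4.41 and 3.46), and RNU5D-1 had 1 (5.20). RNU2-2, a U2 RNA gene, had a Flag peak with 21 reads and a fold enrichment of 3.67. The Flag peaks at RN7SK (2.56) and RNU6-2 (2.43) had the lowest fold enrichments of the 14. Some of these peaks also lay within 1 kb of the start of a protein-coding gene. The RNU4-2 peaks of both lists lay near the start of SIRT4, and the 2 RNU11 peaks near the start of TAF12. Which gene such a peak belongs to cannot be told from these lists. Small nuclear RNA genes have near-identical copies in the genome, and the sources used here do not give how reads were placed among copies.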
